A study of Arabidopsis thaliana with 12 samples.

Results

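QQS (Qua-Quine Starch, locus AT3G30720 on chromosome 3) is 1 of the 13356 Arabidopsis thaliana genes that could be followed on these arrays, and it was taken by its symbol, which 1 probe set carries. It was selected on its measured signals, which differed widely between the lines, so its own levels are given as a description, with no test. RNA came from shoots of 14-day-old seedlings on Affymetrix arrays, in 4 groups of 3 biological replicates. The groups combine the wild type Col-0, or lcs7, a mutant of the vacuolar proton pump gene AVP1 in the same ecotype, with agar medium holding 2 mM or 0.3 mM calcium. All 4 groups grew on Yamagami medium with added sucrose, and the labels do not give the nature of the lcs7 allele. AVP1 itself was not analysed here.

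QQS is an orphan gene: it encodes a small protein with no recognisable relative outside Arabidopsis thaliana. Leaf starch, the store of carbon that a leaf fills by day and spends by night, is known to rise when QQS RNA is lowered, and raised QQS is known to shift carbon from starch towards protein. The protein binds NF-YC4, a subunit of the NF-Y transcription factors. QQS RNA is also known to differ between natural accessions and between sister lines of Col-0 along with DNA methylation upstream of the gene. None of these properties was measured here.

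The arrays were evenly scaled, with a mean signal without the highest and lowest 2% of probe sets between 495.4 and 496.0, and from 17.1 to 19.3% of probe sets lay under a signal of 20, where the log2 scale spreads small differences widely. The Col-0 arrays at 0.3 mM calcium did not form a tight group for QQS and genes like it, with replicate 1 lower than replicates 2 and 3, so QQS values and calls that rest on them are also given with replicate 1 alone. Of the labelled tissue's markers, the 1 of 16 shoot markers measured was RCA, the activase of the carbon-fixing enzyme Rubisco, with group mean signals from 17378 in lcs7 at 0.3 mM to 24045 in lcs7 at 2 mM. In bulk shoots, fewer cells that hold a transcript and less of it per cell cannot be told apart.

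In Col-0 at 2 mM calcium QQS had signals of 10.6, 4.9 and 21.3 on replicates 1, 2 and 3. In Col-0 at 0.3 mM calcium the signals were 46.7, 103.1 and 150.4. All 3 arrays at low calcium stood above all 3 at the higher supply, as did those of 10.1% of all genes. In lcs7 at 2 mM calcium the signals were 431.6, 626.2 and 485.6, the highest of the series and above Col-0 without overlap, as in 8.83% of all genes. In lcs7 at 0.3 mM calcium they were 302.9, 243.3 and 293.0, below every lcs7 array at 2 mM, as in 22.2% of all genes, and above every Col-0 array; 15.6% of all genes were higher without overlap in lcs7 than in Col-0 at 0.3 mM.

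The order of the groups was thus Col-0 at 2 mM, Col-0 at 0.3 mM, lcs7 at 0.3 mM and lcs7 at 2 mM, with geometric means of 10.3, 89.8, 278 and 508. No neighbours in this order overlapped: the nearest arrays differed 2.19-fold between the Col-0 groups, 1.62-fold between Col-0 and lcs7 at 0.3 mM, and 1.42-fold between the lcs7 groups. Such a full separation of all 4 groups was found in 0.936% of all genes, a share given for reference, since QQS was picked for its differences. The groups differed in spread, with an SD of the log2 signal (n = 3 arrays) of 1.06 in Col-0 at 2 mM, 0.86 in Col-0 at 0.3 mM, 0.27 in lcs7 at 2 mM and 0.17 in lcs7 at 0.3 mM. On the linear scale the order was not the same, with an SD of 8.33, 51.9, 100.5 and 31.9. The highest array of Col-0 at 2 mM calcium was 4.35-fold above the lowest, while in lcs7 at 0.3 mM it was 1.25-fold above.

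**Figure D1:**
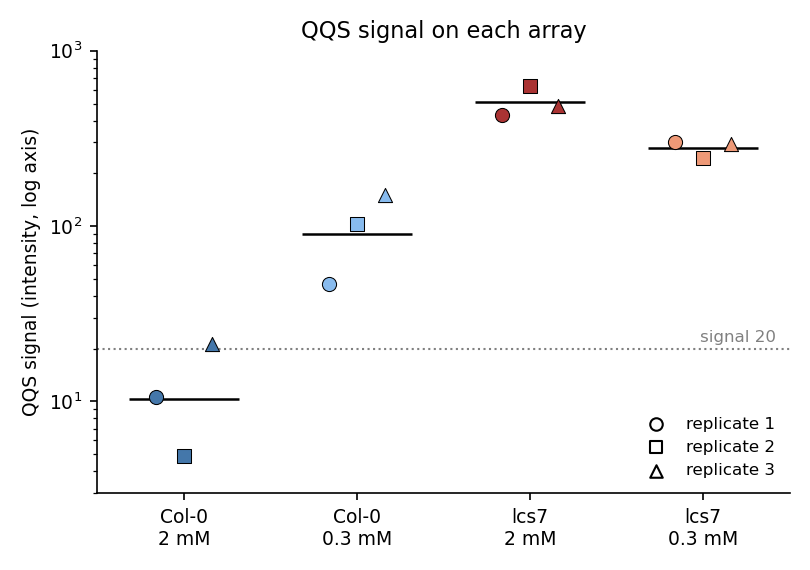
QQS signal (intensity, log axis) on each of the 12 arrays, by line and calcium; symbols mark the replicate, bars the geometric mean of a group, and the dotted line a signal of 20. The 4 groups do not overlap, with Col-0 at 2 mM from 4.9 to 21.3 at the bottom and lcs7 at 2 mM from 431.6 to 626.2 at the top.

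Between the lines, QQS stood higher in lcs7 at both calcium supplies, by less at the lower supply. At 2 mM calcium the log2 difference was 5.62 ± 0.63 (SE from the array SDs, n = 3 per group), a 49.1-fold ratio of geometric means. Because the Col-0 signals there are near background, a smaller difference of 4.64 results when signals under 20 are raised to 20. At 0.3 mM calcium the difference was 1.63 ± 0.51, or 3.1-fold, and 2.58 with replicate 1 as the lone Col-0 array. By size, the rise at 2 mM was number 6 among all 13356 genes (number 8 with signals under 20 raised to 20), and the one at 0.3 mM was number 510 (number 264 with signals under 20 raised to 20).

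With calcium, QQS moved in opposite directions in the lines. In Col-0 it was higher at 0.3 than at 2 mM by 3.12 ± 0.79 on the log2 scale, or 8.68-fold, with 2.14 when signals under 20 are raised to 20 and 2.17 with replicate 1 as the lone array at low calcium. This was the rise of rank 26 in Col-0. In lcs7 it was lower at 0.3 mM, at -0.87 ± 0.19 or 1.82-fold, number 1593 among all falls in that line, or number 598 with signals under 20 raised to 20. Higher signals at low calcium in Col-0 together with lower ones in lcs7, with no overlap of arrays in either line, were found in 0.674% of all genes. The genotype difference at 0.3 mM minus that at 2 mM was -3.99 ± 0.81, and -3.04 with replicate 1 as the lone Col-0 array at 0.3 mM. It was the drop of rank 31 over all genes, and of rank 3 with signals under 20 raised to 20. The comparisons share groups: the Col-0 arrays at 2 mM enter both the genotype difference at that supply and the calcium response of Col-0.

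Genes with a profile like that of QQS were sought over all 12 arrays by the root mean square difference of log2 signals, each gene centred on its mean over the groups, which weighs shape and size together. The nearest 8 genes lay at 0.77 to 0.99 log2 units from QQS, against a median of 2.29 over all genes, and the next gene also lay at 0.99. In order they were AT1G73490, AT1G80960, AT5G44580, AT5G51620, HTB11, AT1G11280, AT4G02540 and AT3G44630. HTB11, a histone H2B gene, is the 1 of them with a name in the annotation. They are spread over the genome, with 3 on chromosome 1, 2 each on chromosomes 3 and 5, and 1 on chromosome 4. The distance depends on the handling of low signals: 5 of the 8 were among the nearest 8 with signals under 20 raised to 20, and 2 of the 8, AT5G51620 and AT1G11280, with an offset of 50.

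These genes were near their lowest in Col-0 at 2 mM calcium and high in lcs7 at both supplies. AT1G73490, the nearest, had signals of 53.5, 47.3 and 57.9 in Col-0 at 2 mM, 58.5, 381.7 and 610.9 in Col-0 at 0.3 mM, 1215.8, 1152.6 and 1253.4 in lcs7 at 2 mM, and 1344.7, 1527.6 and 1557.1 in lcs7 at 0.3 mM. Its arrays in Col-0 at 0.3 mM ran from close to the 2 mM level, on replicate 1, to a level below every lcs7 array, on replicate 3. AT5G51620 had 16.1, 12.5 and 22.5 in Col-0 at 2 mM, then 11.4, 158.0 and 209.4 in Col-0 at 0.3 mM. Its lcs7 arrays overlapped between the calcium supplies, at 651.1, 696.7 and 691.0 at 2 mM and 718.0, 623.0 and 620.6 at 0.3 mM. Over the 8 genes the log2 difference of lcs7 from Col-0 ran from 3.84 to 5.48 at 2 mM and from 1.54 to 3.17 at 0.3 mM, and in all 8 it was smaller at 0.3 mM, as for QQS. These values follow from the choice of the genes and were not tested.

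**Figure D2:**
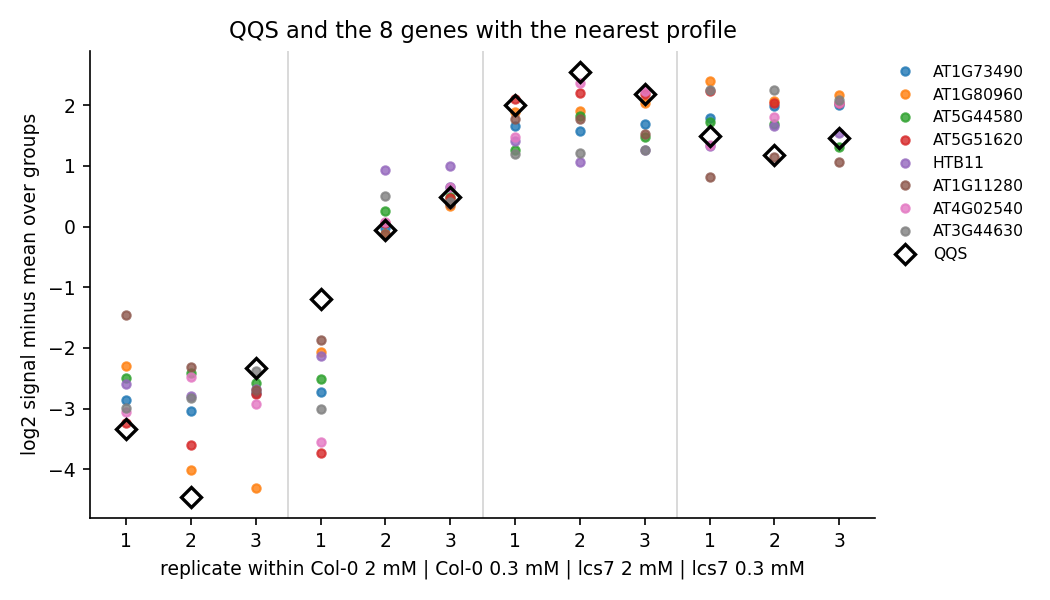
Log2 signal minus the mean over the groups for QQS (diamonds) and the 8 genes of nearest profile (dots) on each of the 12 arrays. QQS lies below all 8 on replicates 1 and 2 of Col-0 at 2 mM and above all 8 on replicate 3 there and on replicate 1 of Col-0 at 0.3 mM; it lies in the upper part of the genes in lcs7 at 2 mM and in the lower part at 0.3 mM.

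Within Col-0 at 0.3 mM calcium the array with the lowest signal was replicate 1 for QQS and for all 8 genes, and the highest was replicate 3 for QQS and 7 of the 8. The 8 were chosen for closeness to QQS over all 12 arrays, these 3 included, so a shared order follows in part from that choice. On a linear scale where the mean of Col-0 at 2 mM is 0% and the mean of lcs7 at 0.3 mM is 100%, QQS stood at 12.9, 34.0 and 51.6% on replicates 1, 2 and 3. The 8 genes stood between -1.81 and 2.91% on replicate 1, with a median of 0.14%. On replicates 2 and 3 they ranged from 17.9 to 65.2% and from 25.5 to 67.8%, with medians of 28.2 and 41.3%, and QQS lay inside both ranges. On replicate 1 QQS lay above all 8. Measured against lcs7 at 2 mM instead, QQS stood at 6.86, 18.1 and 27.5%. These positions come from 1 array each, and what sets the 3 Col-0 arrays apart was not tested.

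**Figure D3:**
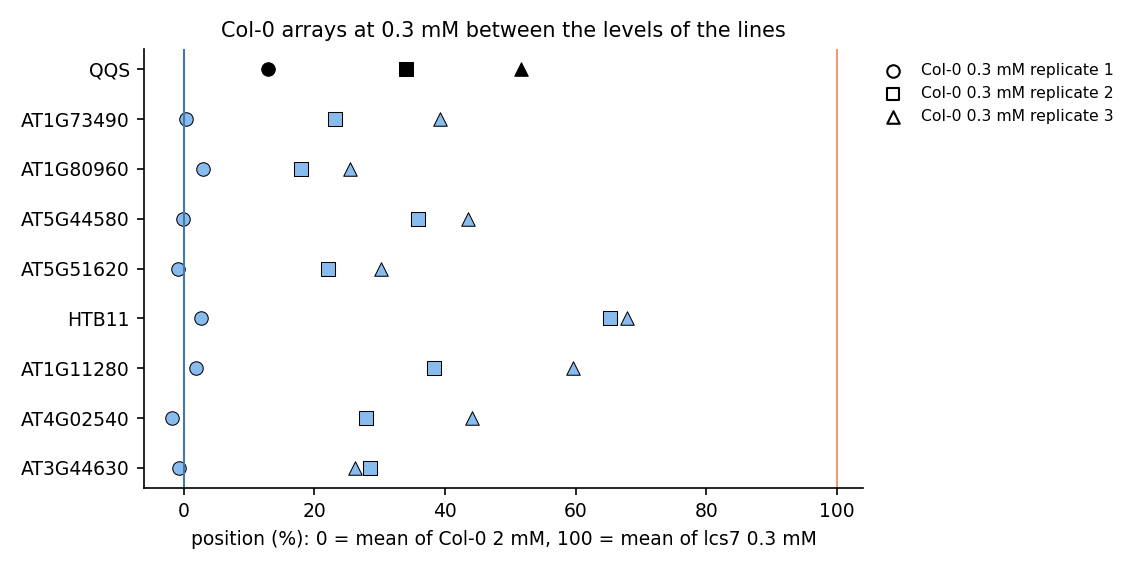
Position of each Col-0 array at 0.3 mM calcium between the mean signal of Col-0 at 2 mM (0%) and that of lcs7 at 0.3 mM (100%), on a linear scale, for QQS (black) and the 8 genes of nearest profile (blue). Replicate 1 lies near 0% for the 8 genes and at 12.9% for QQS, and replicates 2 and 3 lie between 17.9 and 67.8%.

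In lcs7 the calcium response of the 8 genes was mixed. QQS had lower signals at 0.3 mM on all arrays, as in 22.2% of all genes, and so had 1 of the 8, AT1G11280, at -0.68 on the log2 scale (signals 728.4, 729.4 and 614.5 at 2 mM, 375.2, 473.6 and 446.1 at 0.3 mM). AT1G73490, AT1G80960 and AT3G44630 had higher signals at 0.3 mM on all arrays (19.5% of all genes did), AT3G44630 by 0.97, and the arrays of the other 4 overlapped. The median of the 8 was 0.16, against -0.87 for QQS.

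The region around QQS holds few measured genes. Of the 16 genes nearest to it in the RefSeq annotation (TAIR10.1), 8 on each side, 12 are pseudogenes, 3 are protein-coding and 1 is a long non-coding RNA, and 2 of the 16 are measured. Pseudogenes make up 14.2% of the annotated genes of chromosome 3. The nearest measured genes are AT3G30710, AT3G30670 and AT3G30660 before QQS and AT3G30730, AT3G30740 and AT3G30750 after it, 5 pseudogenes and 1 coding gene, AT3G30730. Their signals lay between 0.5 and 55.9 on all arrays, and 3 of them never passed 20. The probe sets of AT3G30670 and AT3G30660 are marked by their suffixes as shared with other sequences.

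The neighbours gave 1 call in 30 tests, and it ran against QQS. At 2 mM calcium limma called 0 of the 6, while 2.75% of all genes were called there. An unadjusted p under 0.05 was found there for 1 of the 6, AT3G30710 (-1.81 ± 0.66, adjusted p = 0.224), and for 2015 of all 13356 genes. AT3G30740, a transcribed pseudogene, was the 1 of the 6 called at 0.3 mM, where 16.8% of all genes were. It had signals of 34.9, 53.7 and 35.2 in Col-0 and 14.5, 13.9 and 8.3 in lcs7 at 0.3 mM. Its arrays did not overlap, and 20% of all genes were lower in lcs7 without overlap there. AT3G30740 was lower in lcs7 by a log2 difference of -1.77 ± 0.38 (limma adjusted p = 0.0121), the opposite direction to QQS. Its lcs7 signals there all lay under 20, where the log2 scale spreads small differences widely. With replicate 1 as the lone Col-0 array the difference was -1.56, and it was no longer called. With calcium in lcs7, where 21.8% of all genes were called, 0 of the 6 passed. An unadjusted p under 0.05 was found there for 1, AT3G30740 (-1.03 ± 0.38, adjusted p = 0.083), and for 4491 of all genes. AT3G30740 passed in 1 of 12 fits without 1 array (0.0394, without lcs7 replicate 2 at 2 mM), with adjusted p up to 0.246. It also passed in 1 of 7 other settings, median centring (-1.15, limma adjusted p = 0.049).

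**Figure D4:**
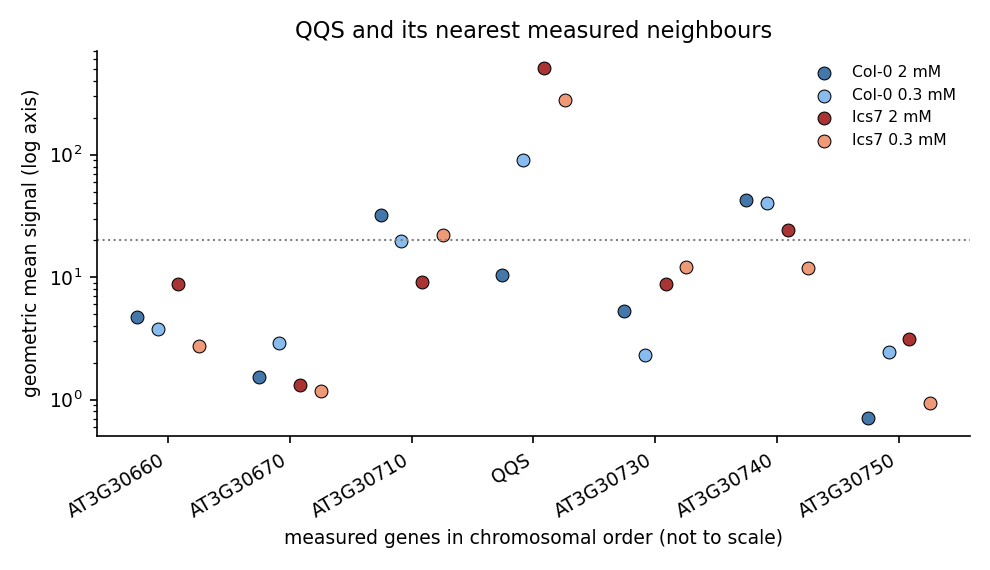
Geometric mean signal (log axis) of the 4 groups for QQS and the 3 nearest measured genes on each side, in chromosomal order and not to scale; the dotted line marks a signal of 20. QQS spans 10.3 to 508 over the groups, and all arrays of the neighbours lie under 60; levels are to be compared within a gene only, since probe sets differ in brightness.

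Starch itself was not measured, but 9 of 43 listed genes of starch synthesis and breakdown were. At 2 mM calcium, where QQS differed most between the lines, 1 of the 9 passed, AT5G65685, which was lower in lcs7. Of all genes, 1.11% were called lower there and 1.64% were called higher. At 0.3 mM calcium 1 of the 9 was higher and 4 were lower in lcs7, where 6.99% of all genes were called higher and 9.8% lower. In Col-0, 0 of the 9 changed with calcium by limma (0.307% of all genes did). An unadjusted limma p under 0.05 was found for 4 of the 9 and for 2337 of all 13356 genes. The 4 were APL3 and AT5G39790 toward higher and DPE1 and AT5G26570 toward lower signals. In lcs7, 2 rose and 3 fell at low calcium, against 10% and 11.8% of all genes. The median log2 difference of the 9 was 0.03, -0.08, -0.04 and -0.32 in these comparisons, against -0.04, -0.05, -0.03 and -0.05 for all genes.

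Of the 5 measured genes of the synthesis list, APL3 rose and SBE2.2 fell in lcs7 at low calcium. APL3, a large subunit of ADP-glucose pyrophosphorylase, which makes the sugar donor for starch, had signals of 162.6, 160.5 and 246.2 in Col-0 and 323.6, 429.1 and 363.8 in lcs7 at 0.3 mM calcium. At 2 mM calcium its arrays overlapped, with 128.7, 142.5 and 114.8 in Col-0 and 115.9, 141.5 and 168.4 in lcs7. It was higher in lcs7 at 0.3 mM by 0.99 ± 0.21 (limma adjusted p = 0.0109) and rose in lcs7 with low calcium by 1.40 ± 0.21 (adjusted p = 0.00158). In a fit of the 0.3 mM groups alone, the difference between the lines had an adjusted p of 0.0545, and with replicate 1 as the lone Col-0 array it was 1.18 (adjusted p = 0.0394).

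SBE2.2, a starch branching enzyme, had signals of 726.7, 762.5 and 767.1 in lcs7 at 0.3 mM calcium, below all 9 other arrays, which lay from 1250.9 to 1519.8. It was lower than in Col-0 at 0.3 mM by a log2 difference of -0.78 ± 0.10 (limma adjusted p = 0.00105), or -0.76 with replicate 1 as the lone Col-0 array. Against lcs7 at 2 mM it was lower by -0.85 ± 0.10 (adjusted p = 0.000474). Of all genes, 20% were lower without overlap in the first of these comparisons and 22.2% in the second. AT5G65685, entered in the list as SS5 but with no name in the annotation, was the only gene of the 9 called at both calcium supplies. Its signals were 696.9, 672.4 and 622.2 in Col-0 and 372.4, 296.6 and 329.7 in lcs7 at 2 mM calcium, and 617.2, 668.0 and 702.0 against 266.4, 254.5 and 274.3 at 0.3 mM. The lines did not overlap, and 12.6% and 20% of all genes were lower in lcs7 without overlap at 2 and 0.3 mM. The log2 difference of AT5G65685 was -1.32 ± 0.11 at 0.3 mM (limma adjusted p = 0.000251), or -1.22 with replicate 1 as the lone Col-0 array. It was smaller at 2 mM, with geometric means of 663 in Col-0 and 331 in lcs7 (adjusted p = 0.00326). In a fit of the 2 mM groups alone the difference at 2 mM had an adjusted p of 0.06. With calcium in lcs7 AT5G65685 differed by -0.32 ± 0.11 (adjusted p = 0.0597). This passed in 1 of 12 fits without 1 array (0.0414, without lcs7 replicate 2 at 2 mM), with adjusted p up to 0.173. It also passed in 5 of 8 other settings, with an adjusted p down to 0.00678 under median centring. The other 2 were APL4, another large subunit of ADP-glucose pyrophosphorylase, and AT5G39790, entered in the list as PTST but with no name in the annotation. Both were called in no comparison, with log2 differences from -0.21 to 0.30.

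Of the 4 measured genes of starch breakdown, DPE1 and AT5G26570 fell and AMY1 rose in lcs7 at low calcium. DPE1, the disproportionating enzyme that handles short glucans in the chloroplast, had 2499.9, 2253.3 and 2461.1 in Col-0 and 2214.5, 2239.3 and 2153.5 in lcs7 at 2 mM calcium. At 0.3 mM the signals were 1796.9, 2177.5 and 2064.2 in Col-0 and 1190.4, 1367.4 and 1240.1 in lcs7. The lcs7 arrays at low calcium were below all others. The log2 difference was -0.67 ± 0.10 between the lines at 0.3 mM (limma adjusted p = 0.0027). With replicate 1 as the lone Col-0 array it was -0.51, and it was no longer called. With calcium in lcs7 the difference was -0.80 ± 0.10 (limma adjusted p = 0.000813). Of all genes, 20% were lower without overlap between the lines at 0.3 mM and 22.2% with calcium in lcs7.

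AT5G26570, a phosphoglucan water dikinase (PWD), which prepares the starch granule surface for degradation, fell in lcs7 from 4639.1, 4941.1 and 4594.3 at 2 mM to 3050.4, 3057.8 and 3015.1 at 0.3 mM calcium (-0.63 ± 0.13, limma adjusted p = 0.00908). Against Col-0 at 0.3 mM (3322.7, 4753.4 and 4697.4) it was lower by -0.47 ± 0.13 (adjusted p = 0.0417). That call passed in 1 of 12 fits without 1 array, the fit without Col-0 replicate 1 at 0.3 mM, and had adjusted p values from 0.0562 to 0.132 in the other 11. With replicate 1 as the lone Col-0 array the difference shrank to -0.13 (adjusted p = 0.586). The call was also lost with quantile normalization (0.0618) and in a fit of the 0.3 mM groups alone (0.16). AMY1, an alpha-amylase, had 57, 92.5 and 52.3 in lcs7 at 2 mM and 117.1, 141.8 and 146.9 at 0.3 mM. It rose with low calcium in lcs7 by 1.05 ± 0.28 (adjusted p = 0.0249). Without lcs7 replicate 1 or 3 at 2 mM, or replicate 2 or 3 at 0.3 mM, its adjusted p was 0.0766, 0.0829, 0.0742 and 0.0798. Between the lines at 0.3 mM AMY1 differed by 0.92 ± 0.28 (adjusted p = 0.0523). It passed in 3 of 12 fits without 1 array, and the adjusted p ran up to 0.156. The 3 were 0.0415, 0.0362 and 0.0324, without Col-0 replicate 1 or 2 or lcs7 replicate 2 at 2 mM. That difference also passed in 4 of 8 other settings, with adjusted p of 0.0383 in a fit of the 0.3 mM groups alone, 0.0131 with an offset of 50, 0.0453 with an intensity trend and 0.0167 without the dimmest genes; with replicate 1 as the lone Col-0 array it was 0.308. AT4G24450, annotated as a second glucan water dikinase, was called in no comparison.

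**Figure D5:**
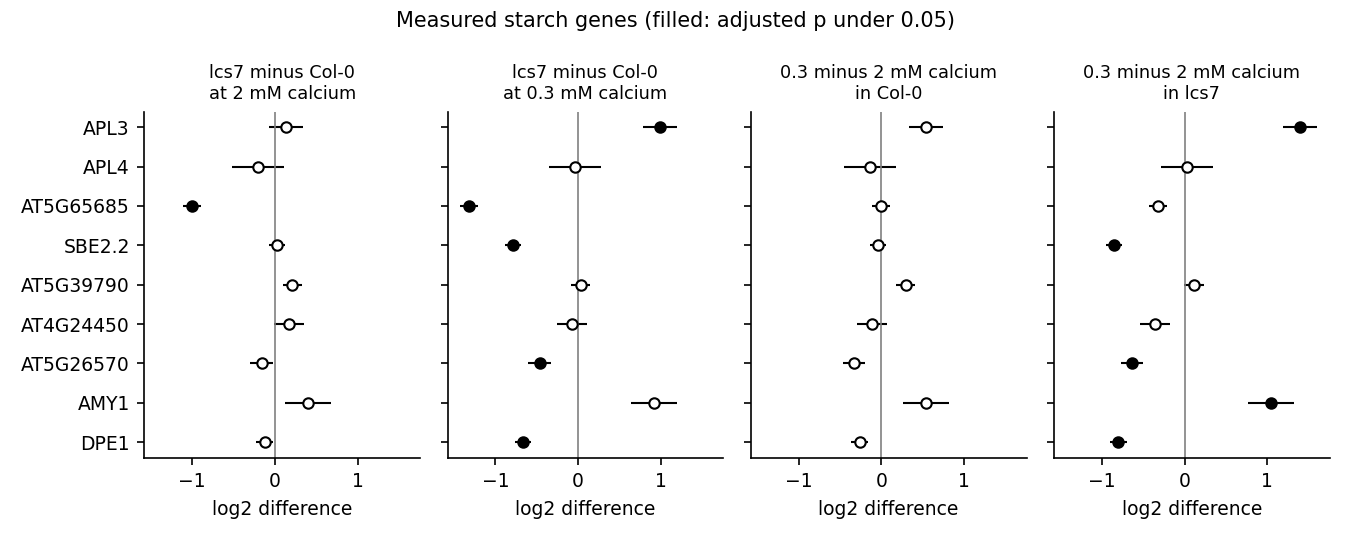
Log2 differences with their SE from limma for the 9 measured starch genes in the 4 comparisons; filled points have an adjusted p under 0.05. In Col-0 no filled point appears, at 2 mM calcium 1 does, and in lcs7 at low calcium 5 do.

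Of the starch genes, SBE2.2 was the 1 of the 9 whose genotype difference changed with calcium, where 2.31% of all genes did and 1.33% in its direction. Its interaction was -0.81 ± 0.14 (limma adjusted p = 0.0222), that is, a fall with low calcium in lcs7 and a difference of -0.04 ± 0.10 in Col-0. The call passed in 6 of 12 fits without 1 array. The adjusted p was 0.062 and 0.0533 without Col-0 replicates 1 and 3 at 2 mM, 0.0554 without Col-0 replicate 2 at 0.3 mM, and 0.0589, 0.0585 and 0.0644 without lcs7 replicates 1, 2 and 3 at 0.3 mM. With replicate 1 as the lone Col-0 array at 0.3 mM it was 0.124. DPE1 had an interaction of -0.54 ± 0.14 that was not called (adjusted p = 0.0903), but it passed with an offset of 50 (0.0386), with an intensity trend (0.0229) and without the dimmest genes (0.0354).

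Beyond starch, 1 of the 13 listed genes for carbon starvation and the kinase SnRK1 was measured, and it changed. Of all genes, 9.8% were called lower between the lines at 0.3 mM, 0.112% lower with calcium in Col-0, 11.8% lower in lcs7 and 1.33% lower in the interaction. AKINBETA1, a regulatory subunit of SnRK1, the kinase that senses low energy, had signals of 2875.9, 2901.9 and 3537.3 in Col-0 at 2 mM and 3340.9, 3412.5 and 3455.2 in lcs7. At 0.3 mM calcium the signals were 1762.3, 1855.9 and 1901.4 in Col-0 and 1161.1, 1006.3 and 976.3 in lcs7. Both lines were lower at low calcium with no overlap, as were 12.2% of all genes in Col-0 and 22.2% in lcs7. At 0.3 mM lcs7 was lower than Col-0, and 20% of all genes were lower there without overlap. The log2 change with low calcium was -0.75 ± 0.11 in Col-0 (limma adjusted p = 0.037) and -1.70 ± 0.11 in lcs7 (adjusted p = 7.02e-05), and the difference between these, the interaction, was -0.95 ± 0.16 (adjusted p = 0.0206). Between the lines at 0.3 mM it was -0.82 ± 0.11 (adjusted p = 0.00159, and 0.0473 with replicate 1 as the lone Col-0 array). The Col-0 call passed in 2 of 12 fits without 1 array, those without lcs7 replicate 1 or 2 at 2 mM, and its adjusted p ran up to 0.0989, without Col-0 replicate 3 at 2 mM. The interaction passed in 8 of 12, with adjusted p of 0.0567 without Col-0 replicate 1 at 2 mM, 0.0505 without Col-0 replicate 3 at 0.3 mM, and 0.0585 and 0.0644 without lcs7 replicates 2 and 3 at 0.3 mM. With replicate 1 as the lone Col-0 array at 0.3 mM these adjusted p were 0.0794 and 0.131. The Col-0 call had an adjusted p of 0.0552 with median centring and 0.197 in a fit of the Col-0 groups alone.

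The other listed genes gave few values. Of 27 genes for sucrose, trehalose and sugar transport 2 were measured and limma called 0, against 2.75% of all genes between the lines at 2 mM and 16.8% at 0.3 mM. ATSPS4F, a sucrose-phosphate synthase, had a log2 difference of -0.87 ± 0.22 between the lines at 2 mM (adjusted p = 0.0842). It passed in 1 of 12 fits without 1 array (0.0444, without Col-0 replicate 1 at 0.3 mM), with adjusted p up to 0.218. The sucrose exporter SWEET11 had a difference of -0.30 ± 0.11 at 0.3 mM (adjusted p = 0.0902) and passed in 0 of 12. Both were at an unadjusted p under 0.05, as were 2015 of all 13356 genes at 2 mM and 4008 at 0.3 mM. ATSPS4F passed with an offset of 50 (0.0324), an intensity trend (0.0156) and without the dimmest genes (0.0245), and SWEET11 with median centring (0.0218), the trend (0.0433) and without the dimmest genes (0.0432). Of 33 genes of DNA methylation and silencing 1 was measured, DME, a DNA demethylase, with differences from 0.06 to 0.24 and adjusted p from 0.51 to 0.854 in the 4 comparisons. Of 13 clock genes 1 was measured, GI, whose RNA peaks late in the day. GI had signals of 530.8, 321.5 and 321.7 in Col-0 and 713.8, 934.5 and 820.1 in lcs7 at 2 mM. At 0.3 mM they were 135.5, 514.2 and 371.3 against 647.7, 692 and 617.1. The lines did not overlap, and 8.83% and 15.6% of all genes were higher in lcs7 without overlap at 2 and 0.3 mM. The GI differences, 1.11 ± 0.42 and 1.14 ± 0.42, had limma adjusted p of 0.252 and 0.103. The first passed in 1 of 12 fits without 1 array (0.0373, without Col-0 replicate 1 at 0.3 mM), with adjusted p up to 0.457. The second passed in 1 of 12 (0.0401, without Col-0 replicate 2 at 0.3 mM), with adjusted p up to 0.212. With replicate 1 as the lone Col-0 array at 0.3 mM the second grew to 2.27. The second also passed with an offset of 50 (0.0487), an intensity trend (0.0361) and without the dimmest genes (0.0402). Their part in the QQS values was not tested. The NF-Y factors, NF-YC4 among them, the nitrogen assimilation genes, FWA and SDC, which DNA methylation keeps silent, and the seed markers were not analysed here.

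Of 11 root markers 2 were measured, as a check for other tissue in the shoot samples. PYK10, a beta-glucosidase abundant in roots and in seedlings, had signals of 1037.7, 907 and 1012.1 in Col-0 and 2468.6, 2994.4 and 2575.6 in lcs7 at 2 mM calcium. It was higher in lcs7 with no overlap, by 1.44 ± 0.17 (limma adjusted p = 0.00491), and at 0.3 mM by 1.92 ± 0.17 (adjusted p = 0.000314, and 0.0093 with replicate 1 as the lone Col-0 array). Of all genes, 1.64% were called higher in lcs7 at 2 mM, where 8.83% were higher without overlap, and 6.99% at 0.3 mM. In lcs7 it rose with low calcium by 1.11 ± 0.17 (adjusted p = 0.00189), where 10% of all genes rose and QQS was lower. EXPA7, an expansin of root hairs, had signals from 7 to 45.1 over all arrays and was called in no comparison. RCA was lower in lcs7 at 0.3 mM than in Col-0 (-0.41 ± 0.09, adjusted p = 0.0121) and than in lcs7 at 2 mM (-0.47 ± 0.09, adjusted p = 0.00484), where 9.8% and 11.8% of all genes were called lower, and after quantile normalization neither call held. The first had an adjusted p of 0.0788 with replicate 1 as the lone Col-0 array and 0.0675 in a fit of the 0.3 mM groups alone. The part of root tissue in the QQS values was not tested.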

How the data were processed

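The authors deposited linear intensities of 22746 probe sets for each array, the lowest being 0.1. Per the submitters' processing notes, RMA (no version) and oligo 1.32.0 were used; the deposited values are neither on a log2 scale nor on shared quantiles, which leaves the summarisation of probes unknown. There is no read depth, and precision is limited by 3 arrays per group. The genome build behind the probe sets is not given in the sources used here, so no coordinates are printed.

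Intensities were taken to log2 with no offset. Probe sets naming 1 gene (13513 of 14016 named) were kept, with the brightest per gene, giving 13356 genes, of which 13286 matched a RefSeq gene by Entrez identifier. Limma 3.58.1 in R 4.3.3 fitted 1 mean per group over all 12 arrays, with 2-sided moderated tests; p-values were adjusted by Benjamini-Hochberg over the 13356 genes, and an adjusted p under 0.05 counts as a call. The fit was tested on simulated data. QQS itself was described only. Figures were drawn with matplotlib 3.10.9 in Python 3.11.15.

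QQS, the 12 gene lists (199 genes, 17 measured) and the tests were chosen with earlier results of these data known. Named genes were QQS, the 8 nearest in profile, the 3 nearest measured genes on each side, and, per list and comparison, up to 4 called members, or the 2 of smallest p. Since few members were measured, all 17 are named. The alternatives were an offset of 50, signals under 20 raised to 20, quantile normalization, median centring, an intensity trend, leaving out the 40% dimmest genes, only the compared groups, a replicate block, each array left out, and Col-0 replicates 2 and 3 at 0.3 mM left out.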

Additional observations from a re-analysis of the deposited data

Results flagged for a closer look

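QQS is listed because all Col-0 arrays had higher signals at 0.3 than at 2 mM calcium and all lcs7 arrays lower ones: the calcium difference in lcs7 minus that in Col-0 was -3.99 on the log2 scale, and this difference was not tested. SBE2.2 and AKINBETA1 are listed because their calcium responses differed between the lines by limma's interaction test, by -0.81 (adjusted p = 0.0222) and -0.95 (adjusted p = 0.0206).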

How the results depend on the processing

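The QQS differences kept their direction under every alternative run, which is a description only, since QQS was picked for its differences. As the compared groups did not overlap, leaving out arrays, an offset or raising low signals could not reverse them. With an offset of 50 they shrank to 3.17 (lcs7 minus Col-0 at 2 mM), 1.21 (calcium in Col-0) and -1.98 (interaction), and without Col-0 replicates 2 and 3 at 0.3 mM the difference between the lines there was 2.58. Leaving out 1 array gave 5.08 to 6.14 and 1.16 to 2.00 between the lines at 2 and 0.3 mM, 2.58 to 3.64 and -0.99 to -0.72 for calcium in Col-0 and lcs7, and -4.51 to -3.45 for the interaction.

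The number of genes called at 2 mM between the lines was 367, and 617 with the offset, 649 with an intensity trend, 639 without the dimmest genes, 83 with only the compared groups, and 138 to 421 without 1 array. At 0.3 mM it was 2243, and 1322 with only the compared groups, 747 without Col-0 replicates 2 and 3 there, and 1493 to 2226 without 1 array. For calcium in Col-0 it was 41, and 480, 721 and 665 with the offset, the trend and without the dimmest genes, 68 with quantile normalization, 75 without Col-0 replicates 2 and 3 at 0.3 mM, and 6 to 79 without 1 array; in a fit of the Col-0 groups alone limma's count was 0, and 1716 genes had an unadjusted p under 0.05. For calcium in lcs7 it was 2915, and 2064 to 3065 without 1 array. For the interaction it was 308, and 794, 750 and 763 with the offset, the trend and without the dimmest genes, and 57 to 398 without 1 array; without Col-0 replicates 2 and 3 at 0.3 mM limma's count was 0, and 1869 genes had an unadjusted p under 0.05. Median centring lowered the share of higher calls from 46 to 32.2% for calcium in lcs7 and from 42.2 to 30.4% for the interaction, with medians over all genes of -0.17 and -0.10, and from 41.6 to 32.3% for the lines at 0.3 mM. Without Col-0 replicates 2 and 3 at 0.3 mM that share went from 41.6 to 55.7% for the lines at 0.3 mM and from 63.4 to 37.3% for calcium in Col-0. The causes were not tested.

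Same-numbered replicates did not deviate together (correlations from -0.024 to 0.050 across genes), so the numbers were not taken to pair the arrays. With the replicate block the counts were 220, 17 and 102 for the lines at 2 mM, calcium in Col-0 and the interaction. Since every group holds each replicate number once, the QQS difference of 5.62 between the lines at 2 mM could not change with the block. Of the named calls, 4 had an adjusted p over the threshold with it: AKINBETA1 with calcium in Col-0 (0.0659) and in the interaction (0.0573), AMY1 with calcium in lcs7 (0.0511) and AT5G26570 between the lines at 0.3 mM (0.0606).

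Of the 22 calls at list genes and neighbours 17 held whichever of the 12 arrays was left out, and 11 held under all other alternatives. RCA in lcs7 with calcium turned to 0.00368 after quantile normalization (adjusted p = 0.981). Of the 8 genes nearest to QQS, 2 were kept with the offset of 50 and 5 with signals under 20 raised to 20.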
